A study of Mus musculus with 15 samples.

Results

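ENG+FDG+ cells were compared with ENG-FDG+ cells, 2 sorted fractions of differentiated mouse embryonic stem cells that both carried an active Endoglin reporter and differed in whether they were labelled positive or negative for the Endoglin protein itself (ENG). The members were the 3 libraries labelled ENG+/FDG+ HEI and the 3 labelled ENG-/FDG+ HEI, 6 of the 15 libraries of the series, and they were picked out by their labels, not by measured values. All 6 came from the line whose construct, labelled -8/P, joins the Eng promoter to an enhancer 8 kb upstream. FDG becomes fluorescent once beta-galactosidase, the reporter enzyme, has cut it, so FDG+ marks cells in which the reporter is on. HEI is the labels' own name for the fraction, and the series text describes the cells marked by this construct as TIE2+, c-KIT+ and CD41- haemogenic endothelium. The same line also gave ENG+FDG- HEI cells (3 libraries), whose levels are set beside the comparison. The 6 libraries left over were FLK1+ cells of another reporter line, in groups labelled LacZ+ and LacZ-. The construct label of that line lists further elements after -8/P. These 6 libraries were not compared here, but they entered the model, which thus held both lines. There they helped set the gene filter, the scaling, the replicate effects shared by all groups and the spread between replicates. Nothing in the labels says that replicates were separate cultures, so a p-value here measures spread among samples that may be technical replicates. The sources used here do not give the day of culture, the gates, or whether the line is 1 clone.

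Haemogenic endothelium is the endothelium from which the first definitive blood cells bud. In the passage from endothelium to blood, RUNX1 acts together with GFI1 and GFI1B to switch endothelial genes off, while MYB, the Ikaros factors and the cytokine receptors mark the blood progenitors that come out. Endoglin is a co-receptor that sits beside the TGF-beta family receptor ALK1 (encoded by Acvrl1) on endothelial cells, and it is also present on early blood-forming cells.

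The 6 libraries held 9705729 to 15284900 counts, and 3 counts, the most that a count of 0 allows, correspond to 0.195 to 0.298 CPM (counts scaled to a common library size after TMM, a correction for library composition). Replicate 1 stood apart from replicates 2 and 3 in both fractions. Over the log2 CPM of all genes tested, ENG+FDG+ replicate 1 correlated at 0.922 with either other library of its group, whereas replicates 2 and 3 correlated at 0.990. For ENG-FDG+ the corresponding values were 0.864 and 0.874 for replicate 1, and 0.989 between replicates 2 and 3. These are correlations across genes, which are not independent replicates. The ribosomal repeat Rn45s took 1.86% of counts in ENG+FDG+ replicate 1 and 3.37% in ENG-FDG+ replicate 1, against 0.522% to 0.602% in the other 4. Genes with at least 1 read numbered 13954 in ENG-FDG+ replicate 1 and 15440 to 15685 in the other 5. The comparison was defined with libraries paired by replicate number, so the number entered the model as a block.

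Eng itself checked the sort. It stood at 904, 180 and 186 CPM in ENG+FDG+ replicates 1, 2 and 3, against 161, 39.4 and 45.1 CPM in ENG-FDG+ replicates 1, 2 and 3. Each ENG+FDG+ library was well above the ENG-FDG+ library of its number, and the groups did not overlap, though replicate 1 ran about as far above replicates 2 and 3 as the fractions ran apart. Eng was 4.78-fold higher in ENG+FDG+ cells (log2 2.26 ± 0.25, SE; adjusted p = 0.000236 with the block and 0.372 without it). ENG-FDG+ cells thus still held Eng RNA, and in bulk RNA fewer positive cells and less RNA per cell cannot be told apart. Eng lies on chromosome 2 from 32646595 to 32682669 (+ strand, GRCm38). The 250 bases just upstream of the Eng start are shown beside those of Myb, a blood progenitor gene that was lower in ENG+FDG+ cells and lies on chromosome 10 from 21124935 to 21160984 (- strand). Both come from RefSeq (GRCm38.p6). Capitals mark AGGAAG, a core of ETS factor sites, and TGTGGT, a core of RUNX sites, on either strand.
Eng, chr2:32646345-32646594, + strand: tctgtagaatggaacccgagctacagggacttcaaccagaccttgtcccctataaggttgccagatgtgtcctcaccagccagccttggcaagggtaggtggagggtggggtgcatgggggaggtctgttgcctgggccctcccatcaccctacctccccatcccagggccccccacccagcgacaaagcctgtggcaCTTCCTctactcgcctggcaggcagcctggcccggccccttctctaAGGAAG
Myb, chr10:21160985-21161234, - strand: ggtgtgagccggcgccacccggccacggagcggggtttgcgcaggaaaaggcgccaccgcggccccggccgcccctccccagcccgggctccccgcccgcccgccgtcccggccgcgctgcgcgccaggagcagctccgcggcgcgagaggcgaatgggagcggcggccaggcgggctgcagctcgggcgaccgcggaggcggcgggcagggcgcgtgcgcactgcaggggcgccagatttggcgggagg
The Eng window held 2 ETS matches and no RUNX match, and the Myb window held neither. Such short motifs were common in all promoters. Among the 8099 tested genes with 1 start listed, the ETS core lay in 27.6% of windows of this length, in 29.3% of those of genes called higher in ENG+FDG+ cells and in 27.4% of those called lower. The RUNX core lay in 6.48% of windows of genes called higher, in 10.4% of those called lower and in 10.1% of all. The GATA core AGATAA was found in 4.66% (higher), 6.13% (lower) and 5.4% (all), and the E-box CAGCTG in 15% (higher), 9.61% (lower) and 11.5% (all). These letters are descriptions of the windows, not sites.

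Of 13662 genes tested, 1482 (10.8%) differed between the fractions (edgeR quasi-likelihood test with the replicate block, adjusted p under 0.05). In ENG+FDG+ cells 697 genes were higher (5.1%) and 785 were lower (5.75%). Counts of list members below are to be read against these shares. They cover tested members only, and a gene that passed the gene filter through 1 fraction alone was bound to be higher there. The lists were written with earlier results of these data known, so their counts are descriptions and no independent check. The change was over 2-fold for 355 of the higher and 251 of the lower genes. The groups did not overlap for 797 of the 1482, so lack of overlap was common among called genes. Its share over all genes tested was not counted, so where it is given below it describes single genes and is no added support. The direction was the same in all 3 pairs for 696 of the 697 and for 762 of the 785. The same pairs gave the calls, so this agreement follows largely from the selection and is no added support. The median over all genes tested was -0.0435 log2. Without the block, 38 genes passed (0.278%), 19 higher and 19 lower, each of them also called with the block and in the same direction, and 1288 had an unadjusted p under 0.05. Counts fell to 879, 573 and 500 without ENG+FDG+ replicate 1, 2 or 3, and rose to 4127 when only replicates 2 and 3 of every group were fitted, 1362 of which were shared with the 1482 in the same direction. Of 13321 genes tested in that fit, 2063 were higher and 2064 lower. List counts from replicates 2 and 3 alone are to be read against those larger shares, and a larger count there is not by itself stronger support. The genes named below as having risen or fallen kept their call with each of the 6 libraries left out in turn, and moved by less than 1.5-fold, except where a sentence says otherwise. They lost it without the block except where a sentence says that they passed.

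**Figure D1:**
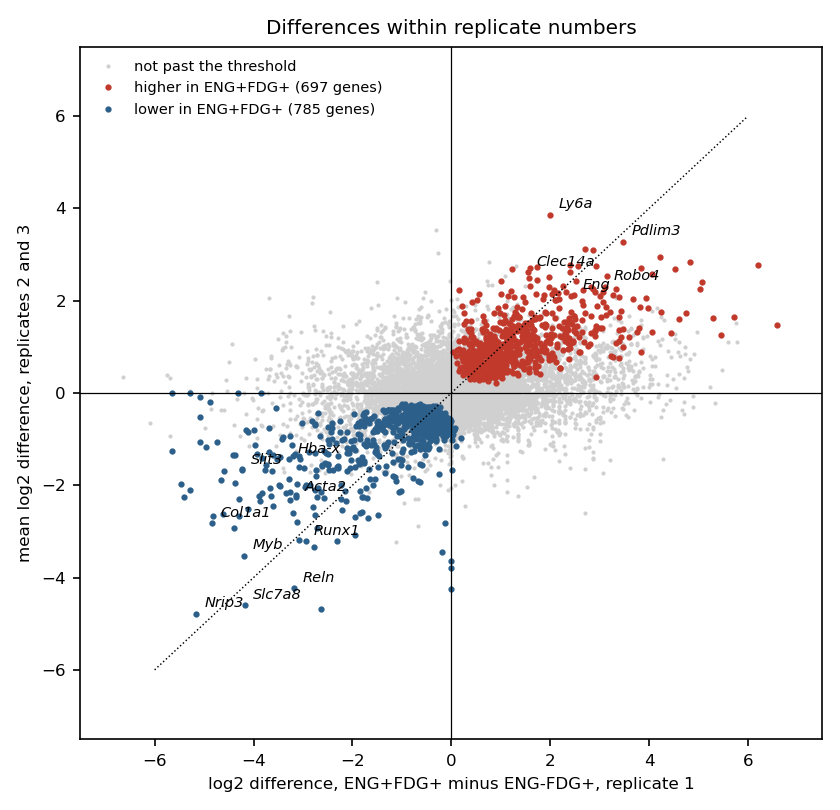
Each point is a gene. The x axis is the log2 difference in CPM, ENG+FDG+ minus ENG-FDG+, in replicate 1, and the y axis is the mean of that difference in replicates 2 and 3. Red points are the 697 genes called higher, blue points the 785 called lower and grey points the genes that did not pass, and the dotted line marks equal differences. Runx1, Myb, Slc7a8 and Eng lie near the line, whereas Acta2, Col1a1, Slit3 and Hba-x lie farther from 0 in replicate 1.

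Endothelial surface and junction genes were higher in ENG+FDG+ cells. Of 35 members tested, 21 rose and 0 fell, against 5.1% of all genes that rose, and the median over the list was 1.02 log2, against -0.0435 over all genes. Both Clec14a and Ptprm passed without the block. Clec14a, a C-type lectin of endothelial cells, stood at 86.1, 68.0 and 91.7 CPM in ENG+FDG+ libraries, against 29.4, 13.1 and 12.3 CPM in ENG-FDG+ libraries. It was 4.69-fold higher (log2 2.23 ± 0.24, adjusted p = 0.000125 with the block and 0.0436 without), and no library of one fraction reached the range of the other. Ptprm, a receptor tyrosine phosphatase of cell contacts, held 186, 200 and 189 CPM in ENG+FDG+ cells and 49.0, 73.9 and 66.6 CPM in ENG-FDG+ cells (log2 1.60 ± 0.17). Robo4, a guidance receptor of the endothelium that stabilises vessels, stood at 128, 23.6 and 30.2 CPM in ENG+FDG+ libraries, against 14.7, 5.10 and 5.45 CPM in ENG-FDG+ libraries, a 6.21-fold difference (log2 2.64 ± 0.32, adjusted p = 0.000308). Its level in replicate 1 was several times that in replicates 2 and 3, and within each number the ENG+FDG+ library was the higher. The scavenger receptor Stab1 (log2 2.08 ± 0.20), the adhesion G-protein-coupled receptor Gpr116 (2.07 ± 0.27), the lectin Cd93 (1.75 ± 0.27), the sialomucin Emcn (2.20 ± 0.37), the nitric oxide synthase Nos3 (2.08 ± 0.39) and the sphingosine phosphate receptor S1pr1 (1.02 ± 0.14) rose as well, all without overlap between the groups. Kdr, the VEGF receptor FLK1, stood at 770, 1036 and 991 CPM in ENG+FDG+ libraries, against 404, 671 and 640 CPM in ENG-FDG+ libraries (log2 0.73 ± 0.16, adjusted p = 0.0106), and its adjusted p was 0.052 without ENG+FDG+ replicate 1. With ENG-FDG+ replicate 1 left out, 18 members of the list rose and 0 fell, and in replicates 2 and 3 alone 28 rose and 0 fell.

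**Figure D2:**
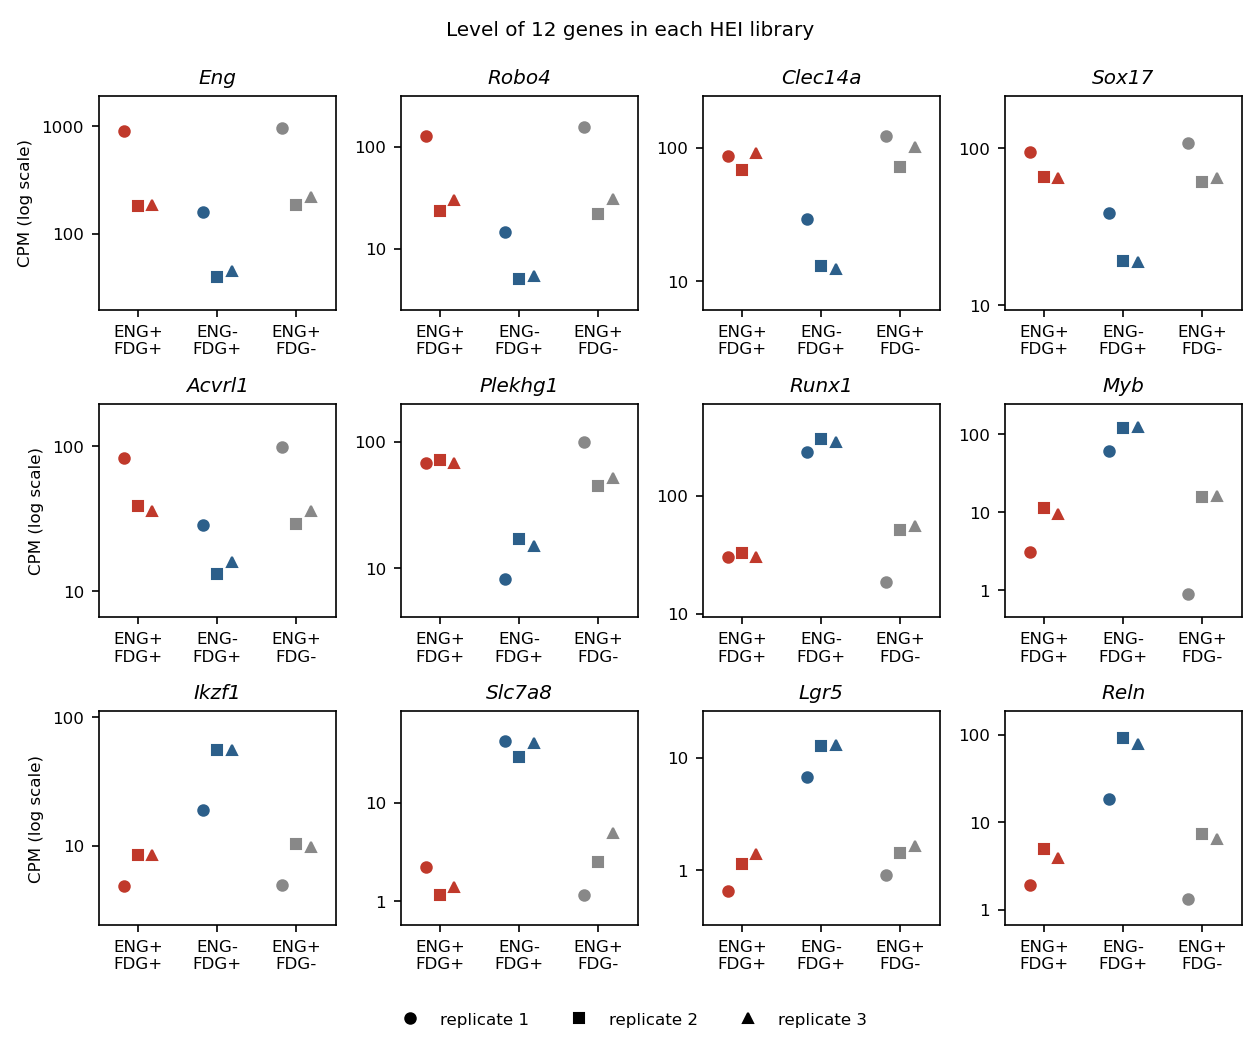
Level of 12 genes in CPM on a log axis, with 1 point per library and the shape giving the replicate number. Red is ENG+FDG+, blue is ENG-FDG+ and grey is ENG+FDG-. Endothelial genes such as Robo4, Clec14a and Sox17 sit higher in ENG+FDG+ than in ENG-FDG+ libraries, and Runx1, Myb, Slc7a8, Lgr5 and Reln sit lower.

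Other general endothelial genes did not pass with all 15 libraries in the fit. Cdh5, which encodes VE-cadherin, held 2414, 1511 and 1616 CPM in ENG+FDG+ libraries, against 841, 876 and 839 CPM in ENG-FDG+ libraries. The groups did not overlap, but the difference did not pass (log2 1.05 ± 0.34, adjusted p = 0.0713). Tek, which encodes TIE2, stood at 517, 888 and 792 CPM in ENG+FDG+ libraries, against 259, 554 and 526 CPM in ENG-FDG+ libraries. Pecam1 stood at 644, 485 and 502 CPM in ENG+FDG+ libraries, against 384, 349.7 and 335 CPM in ENG-FDG+ libraries. Neither passed (log2 0.74 and adjusted p = 0.0969 for Tek, 0.59 and 0.159 for Pecam1). In the fit of the 6 libraries compared alone all 3 passed, with adjusted p = 0.0237 for Cdh5, 0.0257 for Tek and 0.0337 for Pecam1, and in that of the 9 HEI libraries likewise (0.00962, 0.00954 and 0.0148). Transcripts of Kit, which encodes c-KIT, held 75.8, 148 and 144 CPM in ENG+FDG+ libraries, against 148, 170.4 and 169.5 CPM in ENG-FDG+ libraries (adjusted p = 0.197). Itga2b, which encodes CD41, the marker the cells are described as lacking, was detected in each library, with 79.2, 43.5 and 39.2 CPM in ENG+FDG+ cells and 86.5, 72.2 and 69.6 CPM in ENG-FDG+ cells (log2 -0.58 ± 0.19, adjusted p = 0.0702, and 0.00517 without ENG-FDG+ replicate 1). Both fractions thus held RNA of TIE2 and c-KIT, and both held Itga2b RNA.

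Among 20 endothelial transcription factors tested, 8 rose in ENG+FDG+ cells and 1 fell, Etv2, and the median was 0.63 log2. Sox17, a factor of arterial endothelium, stood at 94.7, 65.3 and 64.4 CPM in ENG+FDG+ libraries, against 38.5, 19.1 and 18.8 CPM in ENG-FDG+ libraries, a 3.05-fold difference (log2 1.61 ± 0.15, adjusted p = 5.86e-05). Epas1, the endothelial hypoxia-inducible factor HIF-2 alpha, held 313, 181 and 165 CPM in ENG+FDG+ cells and 121, 64.4 and 46.6 CPM in ENG-FDG+ cells (log2 1.54 ± 0.17). Both were separated without overlap. The flow-responsive factors Klf2 (log2 0.997 ± 0.17) and Klf4 (1.05 ± 0.15) and the ETS factor Elk3 (0.95 ± 0.19) rose too. Nr2f2, a factor of venous endothelium, was 1.86 ± 0.39 log2 higher, but its adjusted p was 0.0787 and 0.0588 without ENG+FDG+ replicate 2 or 3. Etv2, an ETS factor that starts the blood and endothelial programme, stood at 6.77, 3.24 and 1.99 CPM in ENG+FDG+ libraries, against 11.2, 5.001 and 5.45 CPM in ENG-FDG+ libraries (log2 -0.94 ± 0.27, adjusted p = 0.0394), and lost the call without ENG+FDG+ replicate 1 or 3 or ENG-FDG+ replicate 2 or 3 (adjusted p = 0.089 to 0.189). The other 11 did not pass, Erg (log2 0.64, adjusted p = 0.14) and Sox18 (1.09, 0.0808) among them. Both passed in the fit of the 6 libraries compared alone (adjusted p = 0.0447 for Erg and 0.0123 for Sox18) and in that of the 9 HEI libraries (0.00706 and 0.0031). Etv2 did not pass in either of these fits. In replicates 2 and 3 alone 15 members of the list rose and 1 fell.

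Notch and arterial genes moved mostly the same way: 8 of 19 tested rose and 1 fell, with a median of 0.73 log2. Efnb2, the arterial ephrin, stood at 296, 329 and 338 CPM in ENG+FDG+ libraries, against 135, 178 and 162 CPM in ENG-FDG+ libraries, a 2.03-fold difference (log2 1.02 ± 0.14, adjusted p = 0.000714). Notch4, the endothelial Notch receptor, held 66.3, 18.9 and 20.8 CPM in ENG+FDG+ cells and 20.3, 6.25 and 6.56 CPM in ENG-FDG+ cells (log2 1.66 ± 0.27), so the ENG-FDG+ replicate 1 level lay among the ENG+FDG+ levels of replicates 2 and 3 while each pair differed. Notch1 was 0.76 ± 0.15 log2 higher, and Ephb4, the venous receptor of ephrin-B2, 0.73 ± 0.13 higher. Notch2 was the member that fell, with 63.6, 50.1 and 56.1 CPM in ENG+FDG+ libraries, against 166, 92.8 and 93.4 CPM in ENG-FDG+ libraries (log2 -1.03 ± 0.18, adjusted p = 0.00293). Gja5, the arterial connexin 40, had 182, 7 and 24 counts in ENG+FDG+ libraries, against 3, 0 and 1 counts in ENG-FDG+ libraries (adjusted p = 0.00185). A fitted fold at such counts depends on the prior count and is not given. The other 10 did not pass, the ligands Dll4 (log2 1.61, adjusted p = 0.139) and Jag1 (0.76, 0.102) among them. Jag1 was 1.31 log2 higher, with an adjusted p of 0.000915, without ENG-FDG+ replicate 1, and Dll4 had an adjusted p of 0.0484 in the fit of the 9 HEI libraries. In replicates 2 and 3 alone 12 members of the list rose and 1 fell.

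Genes of the TGF-beta and BMP pathway included partners of Endoglin. Of 28 members tested, 7 rose in ENG+FDG+ cells, Eng among them, and 0 fell, with a median of 0.38 log2. Acvrl1, the receptor ALK1, stood at 82.4, 38.4 and 35.6 CPM in ENG+FDG+ libraries, against 28.4, 13.2 and 15.9 CPM in ENG-FDG+ libraries, a 2.67-fold difference (log2 1.42 ± 0.20, adjusted p = 0.000786). The type II receptor Tgfbr2 held 112, 141 and 107 CPM in ENG+FDG+ cells and 27.3, 56.6 and 46.6 CPM in ENG-FDG+ cells (log2 1.46 ± 0.25, adjusted p = 0.00303). Both receptors were separated without overlap. Bmp6, a ligand, was 1.30 ± 0.20 log2 higher. The Id genes, inhibitors of basic helix-loop-helix factors and direct targets of BMP signalling, rose: Id2 passed also without the block, with 38.1, 33.1 and 37.4 CPM in ENG+FDG+ libraries, against 12.4, 10.8 and 14.7 CPM in ENG-FDG+ libraries (log2 1.53 ± 0.21, adjusted p = 0.000689 with the block and 0.0436 without). Id1 was 0.94 ± 0.14 and Id3 0.65 ± 0.12 log2 higher, both with replicate 1 levels several times those of replicates 2 and 3. The other BMP receptors, the SMAD genes and the TGF-beta ligands tested did not pass with all libraries. The list held 12 members higher and 1 lower without ENG-FDG+ replicate 1, and 17 higher and 1 lower in replicates 2 and 3 alone.

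Regulators of the cytoskeleton were a further group. Of 29 exchange factors tested, the proteins that load small GTPases of the cytoskeleton with GTP, 12 rose in ENG+FDG+ cells and 0 fell, with a median of 0.51 log2. Plekhg1, an exchange factor, stood at 67.7, 71.0 and 67.9 CPM in ENG+FDG+ libraries, against 8.23, 17.1 and 14.9 CPM in ENG-FDG+ libraries, a 5.16-fold difference (log2 2.37 ± 0.33, adjusted p = 0.000786 with the block and 0.0302 without). Dock4, which acts on Rac, held 47.7, 39.1 and 43.4 CPM in ENG+FDG+ cells and 18.8, 12.4 and 10.1 CPM in ENG-FDG+ cells (log2 1.68 ± 0.25), and it also passed without the block. In both genes every ENG+FDG+ library lay above every ENG-FDG+ library, and replicate 1 did not stand out in ENG+FDG+ cells. Prex2 (log2 1.79 ± 0.22), the endothelial factor Fgd5 (0.83 ± 0.11) and Arhgef12 (0.66 ± 0.09) rose as well. In replicates 2 and 3 alone 19 members of the list rose and 1 fell. A steep rise was that of Pdlim3, an actin-associated PDZ and LIM protein, with 214, 73.2 and 63.4 CPM in ENG+FDG+ libraries, against 19.0, 9.04 and 5.20 CPM in ENG-FDG+ libraries, a 10.3-fold difference (log2 3.36 ± 0.25, adjusted p = 1.76e-05).

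Of 35 guidance molecules tested, 9 were higher in ENG+FDG+ cells, against 5.1% of all genes. The 3 that were lower were not far above the share of all genes (5.75%). The median was 0.34 log2, and 14 were higher and 4 lower of 34 in replicates 2 and 3 alone. Robo4, Efnb2 and Ephb4, given above, count here too, and the semaphorin Sema6d was 1.38 ± 0.21 log2 higher. Unc5c, a netrin receptor, stood at 58.4, 174 and 155 CPM in ENG+FDG+ libraries, against 184, 543 and 486 CPM in ENG-FDG+ libraries (log2 -1.65 ± 0.17, adjusted p = 7.27e-05). Robo2, a neuronal Slit receptor, stood at 1.04 to 1.99 CPM in ENG+FDG+ libraries, against 4.81 to 6.82 CPM in ENG-FDG+ libraries (log2 -2.02 ± 0.36). It did not pass in the fit of the 6 libraries compared alone. The third gene that fell was Slit3, described with the genes high in ENG-FDG+ replicate 1.

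Transcription factors of blood were lower in ENG+FDG+ cells. Of 23 tested, 11 fell, against 5.75% of all genes that fell, and 1 rose, with a median of -0.51 log2. Runx1, on chromosome 16 from 92601466 to 92826149, stood at 30.2, 33.0 and 30.3 CPM in ENG+FDG+ libraries, against 234, 302 and 283 CPM in ENG-FDG+ libraries. The libraries of each fraction lay close together, and Runx1 was 8.66-fold lower in ENG+FDG+ cells (log2 -3.11 ± 0.25, adjusted p = 4.06e-05 with the block and 0.00384 without). Myb, which progenitors need to multiply, held 3.12, 11.3 and 9.44 CPM in ENG+FDG+ cells and 60.0, 119 and 122 CPM in ENG-FDG+ cells, a 13.4-fold difference (log2 -3.74 ± 0.57, adjusted p = 0.00164). The Ikaros factor Ikzf1 held 4.81, 8.48 and 8.45 CPM in ENG+FDG+ libraries, against 19.1, 55.2 and 55.8 CPM in ENG-FDG+ libraries (log2 -2.49 ± 0.24), and its relative Ikzf2 held 7.48, 22.6 and 22.3 CPM in ENG+FDG+ libraries, against 51.7, 97.1 and 96.5 CPM in ENG-FDG+ libraries (log2 -2.33 ± 0.21). Replicate 1 was the lowest of its fraction for these 3 genes, and in none of them did the fractions overlap. Nfe2, a factor of platelet formation, was 1.88 ± 0.29 log2 lower and Etv6, an ETS repressor, 0.47 ± 0.10 lower. The adjusted p of Etv6 was 0.0753 and 0.0663 without ENG+FDG+ replicate 2 or 3.

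The partners of RUNX1 in silencing endothelial genes were lower as well, with less certainty. Gfi1 stood at 4.42, 7.43 and 7.65 CPM in ENG+FDG+ libraries, against 16.04, 20.1 and 23.9 CPM in ENG-FDG+ libraries (log2 -1.64 ± 0.44, adjusted p = 0.0306). The fractions did not overlap, but the adjusted p was 0.06 to 0.131 with any 1 of the libraries left out other than ENG-FDG+ replicate 1. Gfi1b held 8.39, 3.24 and 2.78 CPM in ENG+FDG+ cells and 17.7, 15.1 and 12.6 CPM in ENG-FDG+ cells (log2 -1.75 ± 0.37, adjusted p = 0.00911), with an adjusted p of 0.0645 and 0.0668 without ENG+FDG+ replicate 2 or 3. Mecom, which encodes EVI1, was the factor that rose (log2 1.06 ± 0.27, adjusted p = 0.0268), and its call was lost without any 1 of 5 libraries (adjusted p 0.0524 to 0.104), all but ENG-FDG+ replicate 2. Tal1, which sets up haemogenic endothelium, stood at 85.3, 124 and 107 CPM in ENG+FDG+ libraries, against 87.7, 266 and 281 CPM in ENG-FDG+ libraries, so that replicate 1 showed little difference (log2 -0.86 ± 0.26, adjusted p = 0.052). Its adjusted p was 0.0454 without ENG+FDG+ replicate 1 and 0.0146 without ENG-FDG+ replicate 1, and Tal1 also passed with RLE size factors (0.0497), in the 9 HEI libraries (0.0449) and with DESeq2 (0.0115). Gata2 held 120, 46.1 and 56.6 CPM in ENG+FDG+ cells and 178, 63.4 and 69.9 CPM in ENG-FDG+ cells and did not pass (adjusted p = 0.202, and 0.0279 in replicates 2 and 3 alone). In all, 11 of the 23 factors did not pass.

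Of 20 megakaryocyte genes listed, 11 were tested. In ENG+FDG+ cells 8 of these were lower and 0 higher, with a median of -1.57 log2. Itgb3, the integrin chain that pairs with CD41, stood at 85.3, 8.76 and 12.9 CPM in ENG+FDG+ libraries, against 306, 61.5 and 69.8 CPM in ENG-FDG+ libraries, a 4.65-fold difference (log2 -2.22 ± 0.37, adjusted p = 0.00288; -2.86 without ENG+FDG+ replicate 1). Replicate 1 was by far the highest in each fraction, so the fractions overlapped while each pair differed. Rab27b, which serves granule release in platelets, held 21.9, 40.9 and 43.6 CPM in ENG+FDG+ cells and 48.4, 175 and 129 CPM in ENG-FDG+ cells (log2 -1.63 ± 0.28). Gata1, the factor of red cells and megakaryocytes, was near the floor, with 2, 2 and 5 counts in ENG+FDG+ libraries, against 41, 10 and 24 counts in ENG-FDG+ libraries (adjusted p = 0.0102, and 0.0672 without ENG+FDG+ replicate 1). Nfe2 belongs to this list too.

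Of 28 erythroid and haem genes listed, 16 were tested. Of these, 5 fell and 0 rose, with a median of -0.47 log2 (8 fell and 0 rose in replicates 2 and 3 alone). Tfrc, the transferrin receptor for iron uptake, stood at 52.2, 190 and 170 CPM in ENG+FDG+ libraries, against 105, 506 and 474 CPM in ENG-FDG+ libraries, a 2.47-fold difference (log2 -1.31 ± 0.12, adjusted p = 4.06e-05). Its level in replicate 1 was the lowest in each fraction. The embryonic globin Hbb-bh1 held 7.87, 3.43 and 2.38 CPM in ENG+FDG+ cells and 52.4, 22.8 and 22.6 CPM in ENG-FDG+ cells (log2 -2.88 ± 0.38, adjusted p = 0.000527). Hba-x stood at 24.9, 1.24 and 1.49 CPM in ENG+FDG+ libraries, against 242, 2.501 and 6.22 CPM in ENG-FDG+ libraries, and Hbb-y at 11.3, 1.05 and 1.29 CPM in ENG+FDG+ libraries, against 70.2, 3.46 and 4.26 CPM in ENG-FDG+ libraries, so that most of their RNA was in replicate 1. For Hba-x the log2 difference of -2.5 became -1.75 without ENG+FDG+ replicate 1 and -1.90 without ENG-FDG+ replicate 1, and for Hbb-y the adjusted p was 0.0644 without ENG+FDG+ replicate 1. Globin genes share sequence, and the counting could have split their reads.

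Of 36 blood surface and signalling genes listed, 24 were tested. Of these, 6 were lower and 2 higher, with a median of -0.38 log2. Gpr56, an adhesion receptor of blood stem cells and progenitors, stood at 21.9, 5.14 and 5.07 CPM in ENG+FDG+ libraries, against 150, 46.9 and 60.8 CPM in ENG-FDG+ libraries, an 8.57-fold difference (log2 -3.10 ± 0.38, adjusted p = 0.00037). Itga4, an integrin chain of progenitors, was 1.18 ± 0.19 log2 lower. Ptprc, which encodes the pan-leukocyte marker CD45, was too low to test, with 2, 0 and 1 counts in ENG+FDG+ libraries and 6, 0 and 0 counts in ENG-FDG+ libraries. Of 25 myeloid genes listed 5 were tested, of which 1 fell and 0 rose. Mfsd2b, the sphingosine phosphate exporter of red cells and platelets, passed without the block (log2 -2.89 ± 0.37), with 1.89, 1.62 and 2.29 CPM in ENG+FDG+ libraries, against 18.8, 11.8 and 13.2 CPM in ENG-FDG+ libraries. So did Dapp1, an adaptor of phosphoinositide signalling in lymphocytes (-2.13 ± 0.26), with 7.42, 9.05 and 6.56 CPM in ENG+FDG+ libraries, against 24.6, 36.8 and 38.7 CPM in ENG-FDG+ libraries.

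**Figure D3:**
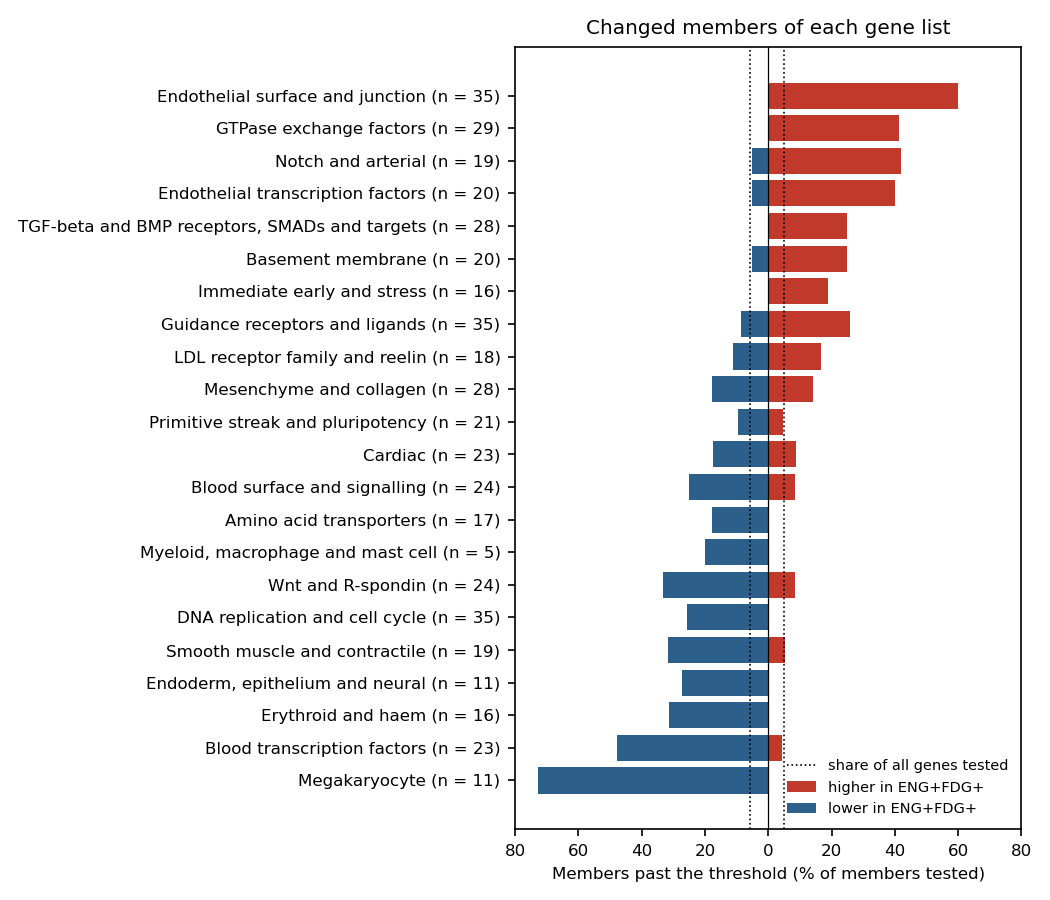
Share of tested members of each list that passed the threshold, with those higher in ENG+FDG+ cells in red to the right and those lower in blue to the left. The dotted lines mark the shares over all genes tested, 5.1% higher and 5.75% lower. Endothelial surface genes (21 of 35 higher) and megakaryocyte genes (8 of 11 lower) are at the 2 ends.

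Several of the steepest falls were outside the blood lists. Slc7a8, an exchanger of neutral amino acids, stood at 2.21, 1.14 and 1.39 CPM in ENG+FDG+ libraries, against 42.8, 29.2 and 40.8 CPM in ENG-FDG+ libraries, a 23.0-fold difference (log2 -4.53 ± 0.42, adjusted p = 5.7e-05 with the block and 0.00384 without). Slc7a5, its relative, was 1.10 ± 0.16 log2 lower, and Slc3a2, the chain both share, 0.37 ± 0.10 lower (adjusted p = 0.0306, and 0.0651 to 0.159 without ENG+FDG+ replicate 2 or 3 or ENG-FDG+ replicate 2 or 3). The other 14 of the 17 amino acid transporters tested did not pass. Lgr5, the R-spondin receptor, gave the smallest adjusted p of these genes. It held 0.651, 1.14 and 1.39 CPM in ENG+FDG+ cells and 6.70, 12.7 and 13.04 CPM in ENG-FDG+ cells, a 10.1-fold difference (log2 -3.34 ± 0.19, adjusted p = 1.11e-06 with the block and 0.0058 without). In the Wnt and R-spondin list 8 of 24 fell and 2 rose, with a median of -0.44 log2 (6 fell and 4 rose of 26 without ENG-FDG+ replicate 1). The Wnt effector Tcf7 (log2 -0.97 ± 0.13, which passed without the block) and the ligand Rspo3 (-0.87 ± 0.12) fell, and the receptor Fzd1 rose (1.62 ± 0.24).

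Reln, the secreted ligand of the lipoprotein receptors VLDLR and APOER2, stood at 1.89, 4.95 and 3.87 CPM in ENG+FDG+ libraries, against 18.3, 92.5 and 78.7 CPM in ENG-FDG+ libraries. It was 16.2-fold lower (log2 -4.01 ± 0.36, adjusted p = 5.56e-05 with the block and 0.0436 without). Lrp2, the endocytic receptor megalin named in the title of the series, held 5.01, 2.86 and 5.37 CPM in ENG+FDG+ cells and 45.1, 11.4 and 22.1 CPM in ENG-FDG+ cells, a 5.49-fold difference (log2 -2.46 ± 0.46, adjusted p = 0.00497). The ENG-FDG+ libraries ranged widely, and the lowest of them was still above the highest ENG+FDG+ library. Cubn, the partner of megalin, and Dab2, an adaptor that binds its tail, were higher (log2 1.65 ± 0.42 and 1.32 ± 0.38). Cubn lost its call without ENG+FDG+ replicate 1 or 3 or ENG-FDG+ replicate 2 or 3 (adjusted p = 0.0507 to 0.127). Dab2 lost it without any 1 library other than ENG-FDG+ replicate 1 (adjusted p = 0.0962 to 0.141), and was 2.04 log2 higher without ENG-FDG+ replicate 1. Of 18 members of the LDL receptor family list tested, 3 rose and 2 fell, against 5.1% of all genes that rose and 5.75% that fell.

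Further genes changed with and without the block. Lower in ENG+FDG+ cells were Nrip3 (log2 -5.09 ± 0.62), the receptor phosphatase Ptprj (-1.75 ± 0.21), the zinc finger factor Sall3 (-1.39 ± 0.13) and the polarity protein Pard6b (-3.03 ± 0.41, and -2.39 without ENG-FDG+ replicate 1). Nrip3 stood at 0.520, 1.33 and 1.39 CPM in ENG+FDG+ libraries, against 24.4, 43.9 and 40.0 CPM in ENG-FDG+ libraries, a 34.2-fold difference. Higher in ENG+FDG+ cells were the endocytic proteins Itsn1 (1.14 ± 0.12) and Epn2 (1.10 ± 0.12), Cttnbp2nl (1.25 ± 0.11), Pdzd2 (1.82 ± 0.20) and the G-protein regulator Rgs2 (1.40 ± 0.16). Cttnbp2nl held 231, 215 and 219 CPM in ENG+FDG+ cells and 86.1, 98.7 and 96.0 CPM in ENG-FDG+ cells.

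Among the largest rises that passed with the block alone were the C-type lectin Clec1a (log2 3.06 ± 0.37), the mucosal addressin Madcam1 (2.52 ± 0.37), the chemokine Cxcl16 (2.25 ± 0.39), the G-protein regulator Rgs16 (2.23 ± 0.40) and Ly6a. Clec1a stood at 22.7, 23.3 and 27.6 CPM in ENG+FDG+ libraries, against 1.44, 4.52 and 3.07 CPM in ENG-FDG+ libraries. Ly6a, which encodes the stem cell marker SCA-1, held 32.7, 10.1 and 16.4 CPM in ENG+FDG+ cells and 8.06, 0.385 and 1.28 CPM in ENG-FDG+ cells (log2 2.95 ± 0.44, and 3.95 without ENG-FDG+ replicate 1). Six3os1, an antisense transcript, was 2.25 ± 0.39 log2 higher, but whether counting used the strand is not given, so its reads cannot be told from those of Six3. The nuclear receptor Nr5a2 was 3.44 ± 0.93 log2 higher and lost its call without any 1 library other than ENG-FDG+ replicate 1 (adjusted p = 0.056 to 0.146), without which it was 2.68 log2 higher.

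Some contractile, collagen and keratin genes were lower in ENG+FDG+ cells, and they were highest by far in ENG-FDG+ replicate 1. The smooth muscle list summed to 4313, 3459 and 3827 CPM in ENG+FDG+ libraries, against 10360, 3551 and 4510 CPM in ENG-FDG+ libraries, so ENG-FDG+ replicate 1 stood apart. Acta2, smooth muscle actin, stood at 410, 54.9 and 76.3 CPM in ENG+FDG+ libraries, against 3602, 202 and 477 CPM in ENG-FDG+ libraries (log2 -2.73 ± 0.53, adjusted p = 0.00709). It was -1.72 without ENG-FDG+ replicate 1, and its adjusted p was 0.0529 without ENG+FDG+ replicate 3. Col1a1, a fibrillar collagen, held 20.04, 3.43 and 3.38 CPM in ENG+FDG+ cells and 580, 17.0 and 36.8 CPM in ENG-FDG+ cells (log2 -4.05 ± 0.98, adjusted p = 0.0247), and the adjusted p was 0.116, at a log2 difference of -1.79, without ENG-FDG+ replicate 1. It was 0.0704 to 0.102 without 1 of the ENG+FDG+ libraries. Krt8, a keratin of simple epithelia, held 13.9, 3.05 and 4.47 CPM in ENG+FDG+ cells and 176, 11.3 and 28.8 CPM in ENG-FDG+ cells (log2 -2.99 ± 0.53, and -1.89 without ENG-FDG+ replicate 1). The same library was the highest by far for Slit3, with 10.1, 2 and 1.79 CPM in ENG+FDG+ libraries, against 193, 3.94 and 10.3 CPM in ENG-FDG+ libraries. Slit3 did not pass without ENG-FDG+ replicate 1 (log2 -0.94, adjusted p = 0.269) or without any 1 ENG+FDG+ library (0.115 to 0.124).

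With all libraries, 6 of 19 smooth muscle genes fell and 1 rose, Pdlim3, and 2 fell and 1 rose without ENG-FDG+ replicate 1. Of 28 mesenchyme and collagen genes, 5 fell and 4 rose with all libraries, and 2 fell and 4 rose without it. Over all genes 5.75% fell and 5.1% rose with all libraries. In replicates 2 and 3 alone 8 of 18 smooth muscle genes fell and 3 rose. Of 28 mesenchyme and collagen genes 5 fell and 6 rose in that fit. Over all 13321 genes tested in that fit, 2064 were lower and 2063 higher. In the list of endoderm, epithelium and neural genes 3 of 11 fell, all of them keratins, which share sequence. For Acta2, Col1a1, Krt18, Slit3, Tagln and Hba-x, plotted by library, replicates 2 and 3 went the same way as replicate 1 at smaller size. Tagln, an actin-binding protein of smooth muscle (log2 -1.52 ± 0.40, adjusted p = 0.031), did not pass without ENG-FDG+ replicate 1 (log2 -0.72, adjusted p = 0.189) or without any 1 ENG+FDG+ library (0.0867 to 0.13). Krt18, the partner of Krt8 (log2 -3.13 ± 0.65, adjusted p = 0.00977), had an adjusted p of 0.0549 and 0.0627 without ENG+FDG+ replicate 1 or 3, and was -1.58 log2 without ENG-FDG+ replicate 1. Postn, a matrix protein of mesenchyme, passed also without the block, with 3.90, 4.76 and 2.88 CPM in ENG+FDG+ libraries, against 85.4, 15.1 and 56.3 CPM in ENG-FDG+ libraries (log2 -3.51 ± 0.49, and -4.17 without ENG+FDG+ replicate 2). Actc1, an actin of heart and early muscle, held 4.42, 2.76 and 2.29 CPM in ENG+FDG+ cells and 112, 9.91 and 26.6 CPM in ENG-FDG+ cells and also passed without the block (log2 -3.74 ± 0.66, and -2.40 without ENG-FDG+ replicate 1). The part of other cells in these values was not tested. Without ENG-FDG+ replicate 1, the count over all genes was 1668, against 1482 with all libraries.

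**Figure D4:**
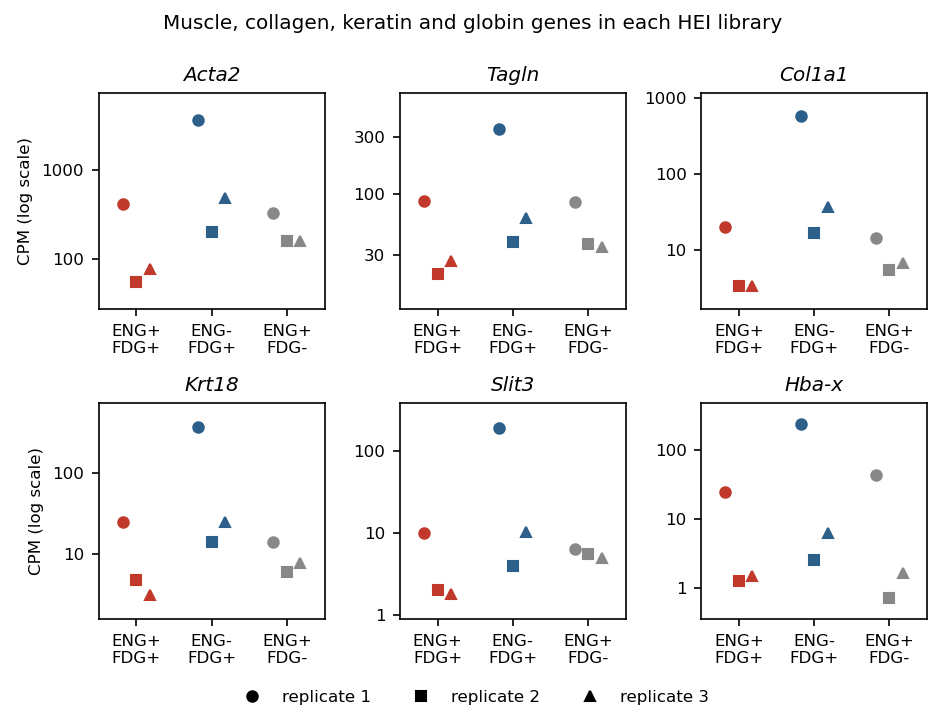
Level of 6 genes in CPM on a log axis, with 1 point per library and the shape giving the replicate number. Red is ENG+FDG+, blue is ENG-FDG+ and grey is ENG+FDG-. ENG-FDG+ replicate 1 is the highest point in each panel, at 3602 CPM for Acta2 and 580 CPM for Col1a1.

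Of 23 cardiac genes tested, 2 rose in ENG+FDG+ cells, not far above the share of all genes (5.1%), and 4 fell (5.75% of all genes). With ENG-FDG+ replicate 1 left out, 2 rose and 2 fell. The 2 that rose were transcription factors that heart and blood vessel precursors share. Gata4 stood at 203, 91.7 and 90.8 CPM in ENG+FDG+ libraries, against 35.2, 41.6 and 32.6 CPM in ENG-FDG+ libraries (log2 1.71 ± 0.25, adjusted p = 0.00105). Hand2 was 1.05 ± 0.17 log2 higher. Those that fell were Actc1, Ryr2, Myl4 and Myl7, and Myl4 and Myl7 did not pass without any 1 ENG+FDG+ library or without ENG-FDG+ replicate 1 (adjusted p = 0.0958 to 0.832). Without that library they were at -1.27 (Myl4) and -0.74 log2 (Myl7), against -2.75 (Myl4) and -5.75 log2 (Myl7) with it. Ryr2, a calcium channel of heart muscle (log2 -1.77 ± 0.41), did not pass without ENG+FDG+ replicate 2 or 3 (adjusted p = 0.061 and 0.0877).

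Of 20 basement membrane genes tested, 5 rose in ENG+FDG+ cells and 1 fell, with a median of 0.40 log2. Without ENG-FDG+ replicate 1, 8 rose and 1 fell, and in replicates 2 and 3 alone 15 rose and 1 fell. The type IV collagen chains Col4a1 and Col4a2 were 0.67 ± 0.10 and 0.68 ± 0.11 log2 higher, and the collagen-binding integrin chain Itga1 was 1.22 ± 0.19 higher. Col4a1 held 1808, 773 and 885 CPM in ENG+FDG+ libraries, against 1195, 469 and 541 CPM in ENG-FDG+ libraries.

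Among 35 genes of DNA replication and the cell cycle, 9 fell and 0 rose, with a median of -0.37 log2. Mcm7, a subunit of the replicative helicase, stood at 105, 72.9 and 67.3 CPM in ENG+FDG+ libraries, against 160, 117 and 118 CPM in ENG-FDG+ libraries (log2 -0.70 ± 0.10, adjusted p = 0.00068). Ccnd2, cyclin D2, held 19.4, 18 and 23.9 CPM in ENG+FDG+ cells and 103, 49.0 and 89.5 CPM in ENG-FDG+ cells (log2 -2.03 ± 0.41, adjusted p = 0.00911). Its log2 difference was -1.29 without ENG-FDG+ replicate 1, and its adjusted p 0.0566 and 0.0616 without ENG+FDG+ replicate 2 or 3. The mitotic genes Mki67 (log2 -0.12), Top2a (-0.14) and Cdk1 (-0.15) did not pass. Cdk1 was lower and passed in replicates 2 and 3 alone, whereas Mki67 and Top2a passed in no alternative fit. The count of members that fell was 18 without ENG-FDG+ replicate 1 and 26 in replicates 2 and 3 alone, where 1 rose.

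Of 16 immediate early and stress genes, 3 rose and 0 fell, among them Atf3 (log2 1.27 ± 0.19) and Dusp1 (0.90 ± 0.13). Dusp1 stood at 377, 117 and 112 CPM in ENG+FDG+ libraries, against 276, 52.0 and 51.9 CPM in ENG-FDG+ libraries. Summed over the list, replicate 1 of ENG+FDG+ cells held 2283 CPM and that of ENG-FDG+ cells 2257 CPM, against 496 to 836 CPM in the libraries of replicates 2 and 3, so these genes differed more between replicate numbers than between fractions. Genes of the primitive streak and of pluripotent cells were mostly near 0, with 13 of 21 tested members under a mean of 1 CPM in both fractions. In this list 1 rose and 2 fell, not far from the shares of all genes (5.1% and 5.75%). Klf2 was the member that rose. Nkx1-2, one of those that fell and a homeobox gene of the early posterior embryo, passed also without the block (log2 -3.39 ± 0.58, and -2.18 without ENG-FDG+ replicate 1).

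The remaining fraction of the line, ENG+FDG- cells, shared ENG with ENG+FDG+ cells and lacked reporter activity. Its levels are given beside the others without a test. Eng stood at 962, 184 and 218 CPM there, close to the 904, 180 and 186 CPM of ENG+FDG+ cells. Clec14a held 122, 71.8 and 102 CPM, Robo4 157, 22.1 and 30.6 CPM and Sox17 107, 60.7 and 64.5 CPM in ENG+FDG- cells, against 86.1, 68.0 and 91.7 CPM for Clec14a, 128, 23.6 and 30.2 CPM for Robo4 and 94.7, 65.3 and 64.4 CPM for Sox17 in ENG+FDG+ cells. Runx1 held 18.7, 51.6 and 55.9 CPM in ENG+FDG- cells, below ENG+FDG+ cells in replicate 1 and above them in replicates 2 and 3, and below ENG-FDG+ cells throughout. Myb likewise held 0.910, 15.9 and 16.1 CPM in ENG+FDG- cells. Slc7a8 held 1.15, 2.47 and 4.94 CPM, Lgr5 0.910, 1.41 and 1.65 CPM, Reln 1.33, 7.31 and 6.32 CPM and Lrp2 3.46, 4.05 and 7.45 CPM in ENG+FDG- cells, all far under the ENG-FDG+ libraries of their number.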

How the data were processed

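The authors sorted the cells, amplified their RNA with a Nugen kit and sequenced it on an Illumina instrument, per the labels' protocols. The deposited table holds whole-number read counts per gene symbol, and the submitters' processing notes name STAR 2.4.0, HTSeq 0.6.1 and the build mm10. The sources used here give neither the annotation nor the strand setting. Of 24061 lines, 27 with a date in place of a symbol were dropped, and mitochondrially encoded genes were not analysed here. Some results are not reported here. Reads carry no molecular identifiers that the labels name, so floors of 3 counts cover counting error only.

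Counts were tested with edgeR 4.0.16 in R 4.3.3 (filterByExpr, TMM factors, robust quasi-likelihood fit) over all 15 libraries in 5 groups, blocked by replicate number, with Benjamini-Hochberg adjustment over the 13662 genes that passed the filter. Adjusted p-values in the text come from this test. Each SE is the size of the log2 fold change divided by the square root of the F statistic of the test. It thus carries no evidence beyond the p-value. Same-numbered ENG+FDG+ and ENG-FDG+ libraries deviated together from their group means (Pearson r across genes 0.67, 0.581 and 0.527 for replicates 1, 2 and 3), which pairs them by the rule of a correlation over 0.1 in all 3 pairs. Numbers 2 and 3 were as close across (0.535 and 0.516), so the pairing mainly sets replicate 1 against both. Pair differences used a prior count of 2. The fit was also run on simulated counts with known changes. These were drawn from the means and spread of the same blocked fit, so they cannot test the block or whether replicates were independent.

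Named genes were the 15 largest rises and 15 largest falls with a group mean of at least 10 CPM and the same direction in all 3 pairs, the 15 smallest adjusted p-values also called without the block, up to 6 members per list past the threshold (or the 2 highest where none passed), and 12 fixed genes. Other genes that the text names were chosen after their values were seen. This comparison and the 23 lists were chosen with earlier results of these data known, while the labels alone set which libraries belong to each fraction. Gene positions come from GENCODE M21 (GRCm38). Alternatives were the block, DESeq2 1.42.0, scaling, filters, the libraries fitted and each library left out.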

Additional observations from a re-analysis of the deposited data

How the results depend on the processing

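The counts depended most on the replicate block and on which libraries entered. With no replicate block 38 genes passed, 19 higher and 19 lower in ENG+FDG+ cells. With only the 6 libraries compared 472 passed, 300 higher and 172 lower. With replicates 2 and 3 of all groups only 4127 passed, 2063 higher and 2064 lower. A test against a fold of 1.5 passed 208, 124 higher and 84 lower. With each of the 6 libraries left out in turn the total ranged between 500 and 1668, genes higher in HEI ENG+FDG+ between 298 and 856 and genes lower in HEI ENG+FDG+ between 202 and 812. The cause of these shifts was not tested. Under the 2-level block, RLE size factors, both other filters, the 9 HEI libraries, DESeq2 and, added after seeing the data, a block within each reporter line, the total lay between 1200 and 2081. Of the single genes, Myl7 changed sign in replicates 2 and 3 alone, to 0.0973 log2 (adjusted p = 0.974). With the 6 libraries compared alone 10 single genes lost their call and 5 gained one. Those lost were Cubn, Dab2, Etv2, Etv6, Gata1, Nr5a2, Robo2, Ryr2, Slc3a2 and Slit3. With the 9 HEI libraries 2 lost it, Etv2 and Slit3, and 7 gained one. With 3 libraries a fraction, genes at a few counts in both fractions could not be compared at this depth.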

Other observations

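Lists chosen after values of these genes had been seen showed further groups, and their counts are descriptions that support nothing else. Genes of ribosome biogenesis, which build ribosomal subunits in the nucleolus, fell in ENG+FDG+ cells in 31 of 50 members tested and rose in 0, with a median of -0.51 log2. Nolc1, a nucleolar protein, stood at 110, 80.6 and 84.6 CPM in ENG+FDG+ libraries, against 159, 147 and 149 CPM in ENG-FDG+ libraries (log2 -0.74 ± 0.09, adjusted p = 0.000355). Of 25 genes of sterol and fatty acid synthesis 8 fell, of 20 chaperone genes of the HSP90 and CCT group 7 fell, and of 16 genes of serine and glycine synthesis 6 fell, with 0 higher in all 3 lists. Without ENG-FDG+ replicate 1 the falls numbered 14 (sterol and fatty acid), 10 (chaperones) and 8 (serine and glycine, where 1 rose), and in replicates 2 and 3 alone 20, 17 and 10. The chaperone median was 0.0243 log2 in replicate 1, against -0.579 and -0.528 log2 in replicates 2 and 3. Phgdh, the first enzyme of serine synthesis, held 25.2, 6.95 and 9.64 CPM in ENG+FDG+ cells and 46.5, 22.0 and 29.0 CPM in ENG-FDG+ cells (log2 -1.33 ± 0.22, adjusted p = 0.0019). Without the block 1 member of the ribosome biogenesis list passed, and 0 of the other 3.

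Genes of caveolae and of vasoactive signalling were higher in 8 of 19 members and lower in 2, with a median of 0.77 log2, and 0 passed without the block. Edn1, which encodes the vasoconstrictor endothelin, stood at 258, 97.1 and 130 CPM in ENG+FDG+ libraries, against 69.8, 22.3 and 29.8 CPM in ENG-FDG+ libraries (log2 2.04 ± 0.19, adjusted p = 4.82e-05). Cav1, the coat protein of caveolae, was 1.90 ± 0.25 log2 higher. Gucy1a3, a subunit of the nitric oxide receptor, was lower, with 5.98, 8.48 and 5.76 CPM in ENG+FDG+ cells and 23.6, 63.5 and 56.9 CPM in ENG-FDG+ cells (log2 -2.65 ± 0.34, adjusted p = 0.000453). Of 13 regulators of G-protein signalling 4 rose and 1 fell. Of 15 insulin and IGF genes 1 rose and 4 fell, among them the receptor substrate Irs2, with 29.7, 8.48 and 7.35 CPM in ENG+FDG+ libraries, against 131, 39.7 and 42.2 CPM in ENG-FDG+ libraries (log2 -2.25 ± 0.20, adjusted p = 4.06e-05).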
